A study of Mus musculus with 3 samples.

Results

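Transmitter identity was examined through 8 genes that set whether a neuron packs glutamate or GABA into its synaptic vesicles, or that remove these transmitters. They are the vesicular glutamate transporters Slc17a7, Slc17a6 and Slc17a8, the vesicular GABA transporter Slc32a1, the GABA-synthesizing enzymes Gad1 and Gad2, the neuronal glutamate transporter Slc1a1 and the GABA-degrading enzyme Abat. The genes were taken by name, and all 8 were among the 52636 genes of the count table. FACS RNA-Seq was available for 1 condition, live tdTomato-positive cells sorted from papain-digested hippocampi of male Camk2a-Cre +/-, Ai14 +/- mice on the C57BL/6J background, aged 28 to 32 days. The 3 biological replicates each pooled cells of 2 to 4 mice, and the SDs below describe the spread between these pools. The p-values below treat each pool as 1 replicate and do not measure this spread. The promoter of Camk2a, a gene of forebrain excitatory neurons, drives Cre in these mice, and Cre then switches on the Ai14 tdTomato reporter. The dissected tissue was the whole hippocampus, not CA1 alone. No control group or unsorted tissue was analysed here, so levels and ratios between genes of the same library are given, and no enrichment.

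In the forebrain, glutamate is loaded into vesicles by proteins of the SLC17 family, and GABA by a single transporter encoded by Slc32a1. A GABAergic interneuron uses Gad1 and Gad2 to make GABA from glutamate together with Slc32a1 to package it, whereas a hippocampal pyramidal neuron is known for Slc17a7. Released glutamate is cleared mainly by the astrocytic transporters Slc1a2 and Slc1a3, and Slc1a1 is the carrier found on neurons.

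Libraries held 15833075 to 48159841 assigned counts. TPM, counts divided by gene length and scaled to the same total in each library, were scaled over the 21883 nuclear protein-coding genes, because Gm23935, a feature of 57 bp, took 32.7% to 48.3% of TPM over all genes. A gene is called detected here where CPM, its counts scaled to the library total, was 1 or more in all 3 replicates. All 8 markers of CA1 pyramidal neurons were detected, and their median was 242 ± 8.08 TPM (SD, n = 3). All 8 markers of dentate granule neurons were detected too, with a median of 72.6 ± 2.58 TPM, and so were all 6 CA3 markers, with a median of 19.7 ± 1.39 TPM. Markers of oligodendrocytes, a glial cell, were likewise detected in 8 of 8 cases and summed to 1107, 1135 and 1071 TPM, with Mbp the highest. The samples are therefore called tdTomato-positive hippocampal cells, with no narrower cell type name. In bulk libraries, fewer cells of a type and less RNA per cell cannot be told apart.

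Members of the same family are related in sequence, so their coding sequences were compared first to see how far their reads can be confused. The coding sequences of Slc17a7 and Slc17a6 were identical at 74.0% of 1659 aligned bases, and those of Gad1 and Gad2 at 68.1% of 1733. No word of 31 bases was shared between the coding sequences of Slc17a7, Slc17a6 and Slc17a8 or between those of Gad1 and Gad2. In the following windows the longest identical runs are in capitals, 5′ to 3′, with 20 flanking bases on each side in lower case, from GENCODE vM21 transcripts. The run shared by Slc17a7 and Slc17a6 has 21 bases, and that shared by Gad1 and Gad2 has 17.

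Slc17a7, coding bases 224 to 284: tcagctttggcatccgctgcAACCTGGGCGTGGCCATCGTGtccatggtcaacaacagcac

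Slc17a6, coding bases 248 to 308: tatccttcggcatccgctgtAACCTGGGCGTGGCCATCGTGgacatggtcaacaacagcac

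Gad1, coding bases 1184 to 1240: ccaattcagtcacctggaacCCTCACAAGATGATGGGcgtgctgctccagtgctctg

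Gad2, coding bases 1160 to 1216: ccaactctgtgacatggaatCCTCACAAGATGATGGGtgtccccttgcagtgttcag

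Even these closest stretches are flanked by several differences within 20 bases. Outside the family, Gad1 shared 289 of its 7649 words of 31 bases (3.78%) with Gad1-ps, a processed pseudogene, so part of its count may be uncertain. Slc17a8 shared 148 words (3.17%) with other genes and Gad2 132 words (2.26%). Those other genes made up 1107 combinations of gene and transcript type for Slc17a8, and 4962 for Gad2. How many of the few counts of Slc17a8 and Gad2 come from shared words was not examined, and the share of words does not limit it. A further pair of members overlaps a gene on the opposite strand, and the strand setting of the counting is not stated in the sources used here. Slc1a1 shares 42.6% of its exon bases with 4430402I18Rik, a protein-coding gene with 394, 171 and 140 counts, and Slc32a1 shares 24.9% with Gm14205, an antisense gene without counts. The remaining 6 members share no exon base with another gene of the table.

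Slc17a7, the vesicular glutamate transporter of most cortical and hippocampal excitatory synapses (VGLUT1), was by far the most abundant of the 8 mRNAs. It had 1358, 1360 and 1222 TPM in replicates 1, 2 and 3, from 61075, 32386 and 17000 counts. Replicate 3 was the lowest, and the mean was 1314 ± 79.0 TPM (SD, n = 3). This placed Slc17a7 at rank 43 of 21883 nuclear protein-coding genes, and at rank 2 of 371 genes of the SLC (solute carrier) families, after Slc22a17. It lies on the + strand of chromosome 7 of GRCm38, from 45163949 to 45176142. For comparison, Camk2a, the gene whose promoter drives Cre, had 1615 ± 8.62 TPM.

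Slc17a6 (VGLUT2), the vesicular transporter best known from the thalamus and brainstem, was also present but much lower. It had 16.3, 11.9 and 16.2 TPM in replicates 1, 2 and 3, with a mean of 14.8 ± 2.55 TPM and rank 9382. The gene lies on the same chromosome and strand as Slc17a7, from 51622006 to 51671119. Replicate 2 was the lowest, and its 95% Poisson interval for counting error, 10.5 to 13.3 TPM, did not reach the values of the other replicates. Within each library, Slc17a7 exceeded Slc17a6 83.2-fold, 115-fold and 75.3-fold. On the log2(TPM + 1) scale the difference was 6.39 ± 0.30 (SD, n = 3), and it was positive in 3 of 3 replicates.

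Slc17a8 (VGLUT3), a transporter of selected neurons that often use another transmitter as well, was at the edge of detection. Encoded on the - strand of chromosome 10, from 89574020 to 89621253, it had 6, 0 and 8 counts, which is 0.152, 0 and 0.657 TPM. The count of 0 in replicate 2 allows up to 3 counts, or 0.144 TPM, and the 95% interval of replicate 3 was 0.284 to 1.30 TPM. Slc17a6 exceeded Slc17a8 in 3 of 3 replicates, by 3.66 ± 0.27 on the log2(TPM + 1) scale, and Slc17a7 exceeded it by 10.05 ± 0.46. With 0.1 added to TPM in place of 1, these differences were 5.79 and 12.26, so they have no fixed size. In TPM, Slc17a6 exceeded Slc17a8 107-fold, at least 82.5-fold and 24.7-fold in replicates 1, 2 and 3. The bound in replicate 2 sets Slc17a8 at 3 counts. Slc17a7 made up 98.9% ± 0.25 of the summed TPM of the 3 vesicular glutamate transporters (SD, n = 3), with 98.8%, 99.1% and 98.6% in single replicates. Of the other SLC17 genes, Slc17a5, the lysosomal sialic acid carrier sialin, had 47.5 ± 2.30 TPM, while Slc17a9, the vesicular nucleotide transporter, had 1.57 ± 0.39 TPM. Slc17a1 and Slc17a4 had a count of 0 in all 3 libraries.

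**Figure D1:**
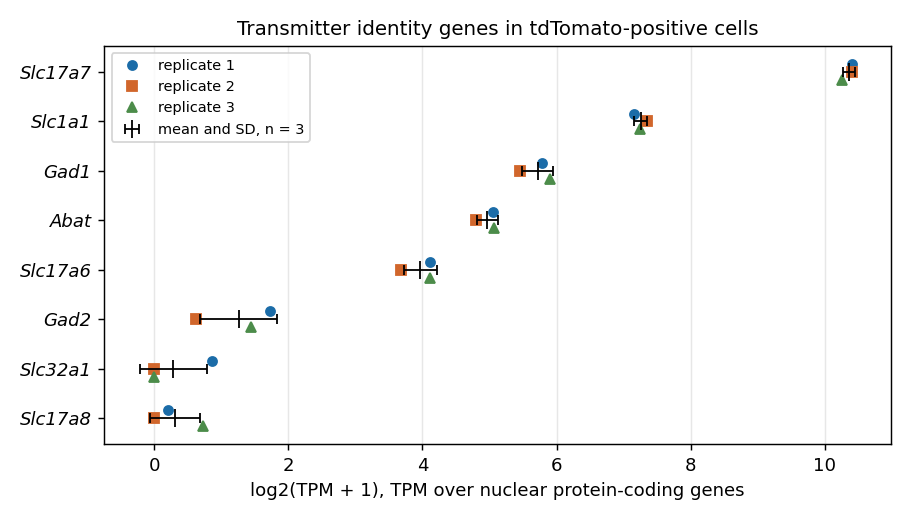
Level of the 8 genes on a log2(TPM + 1) axis, with TPM over nuclear protein-coding genes. Symbols are the 3 replicates, and the black tick with its bar is the mean and SD; Slc17a7 lies at 1222 TPM or more in each replicate, whereas Slc32a1 and Slc17a8 lie below 1 TPM in each.

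The genes of GABA synthesis and packaging did not have similar levels. Gad1, which encodes the GAD67 form of glutamate decarboxylase, had 54.3, 43.0 and 59.1 TPM from 3460, 1450 and 1164 counts, with a mean of 52.1 ± 8.27 TPM and rank 4825. Gad2, which encodes the GAD65 form bound to synaptic vesicles, had 2.31, 0.539 and 1.72 TPM from 113, 14 and 26 counts. Gad1 lies on the + strand of chromosome 2 from 70553072 to 70602014, and Gad2 on the same strand from 22622205 to 22693874. Both enzymes were lowest in replicate 2, and the lowest Gad1 value was above the highest Gad2 value. The ratio of Gad1 to Gad2 was 23.6, 79.7 and 34.4 in replicates 1, 2 and 3, a log2(TPM + 1) difference of 4.46 ± 0.39 (SD, n = 3). Gad1 thus held 97.3% ± 1.42 of the summed TPM of both enzymes. Against Slc17a7, Gad1 was lower in 3 of 3 replicates, with a log2(TPM + 1) difference of 4.64 ± 0.30 and ratios between 20.7 and 31.6.

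Slc32a1 (VGAT), the transporter that loads GABA into vesicles, lies on the + strand of chromosome 2 from 158610767 to 158615748. It had 19 counts in replicate 1 and 0 counts in replicates 2 and 3. This is 0.815 TPM in replicate 1, with a 95% interval of 0.490 to 1.27 TPM. At the limit of 3 counts, the counts of 0 allow up to 0.243 TPM in replicate 2 and 0.416 TPM in replicate 3. By the same 95% interval as for replicate 1, their upper ends were 0.299 and 0.511 TPM. Replicate 3 therefore overlapped the interval of replicate 1, and replicate 2 did not. Replicate 1 was also the deepest library. Gad1 exceeded Slc32a1 66.7-fold in replicate 1, and at least 177-fold and 142-fold in replicates 2 and 3. Slc17a7 exceeded Slc32a1 1667-fold in replicate 1, and at least 5600-fold and 2939-fold in the others. These lower bounds set Slc32a1 at 3 counts per library.

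Because Gad1 is a marker of interneurons and its mRNA is also known from dentate granule neurons, the markers of both are given beside it. Of 15 interneuron markers, only Reln, a gene of 23738 bp, was detected by CPM, and 8 had a count of 0 in at least 1 replicate. By TPM the order differs, since Sst, Npy and Calb2 had at least 1 TPM in all 3 replicates, whereas Reln had 1.62, 0.992 and 1.34 TPM. The summed level of the list was 26.9, 17.2 and 48.9 TPM, most of it from Sst and Npy, with means of 12.8 and 9.72 TPM. The 8 dentate granule markers summed to 1149, 1057 and 1093 TPM, with means of 621 TPM for C1ql2 and 151 TPM for Prox1. The part of either cell type in the Gad1 level was not tested.

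Abat, the mitochondrial transaminase that starts GABA breakdown, lies on the + strand of chromosome 16 from 8513429 to 8621568. It was expressed at 32.1, 26.7 and 32.5 TPM, with a mean of 30.4 ± 3.20 TPM. It was below Gad1 in 3 of 3 replicates, with a log2(TPM + 1) difference from Gad1 of -0.75 ± 0.09. Its partner in the pathway, Aldh5a1 (succinate semialdehyde dehydrogenase), had 52.4 ± 4.91 TPM. Of the 5 further genes of GABA uptake and breakdown, 3 were detected, among them Aldh5a1 and the plasma membrane GABA transporter Slc6a11 (28.5 ± 2.27 TPM). The related carriers Slc6a12 and Slc6a13 had means of 0.294 and 0.361 TPM. The lowest replicates of Abat, Aldh5a1 and Slc6a11 were above the highest replicate of Gad2 and of Slc32a1.

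Slc1a1 (EAAC1), which carries glutamate and cysteine into neurons, was second in level among the 8 genes. Its gene lies on the + strand of chromosome 19 from 28835049 to 28913960. It had 142, 162 and 151 TPM, a mean of 152 ± 10.1 TPM and rank 1452, and unlike Slc17a6, Gad1, Gad2 and Abat it was highest in replicate 2. If reads in the exon bases shared with 4430402I18Rik were not counted, dividing by the remaining 3539 bases gives 265 ± 17.6 TPM. Slc1a1 exceeded Abat in 3 of 3 replicates, by 2.28 ± 0.24 on the log2(TPM + 1) scale. Its relation to Slc1a2, the main astrocytic glutamate transporter, depended on the gene length used. With merged exons as length, the ratio of Slc1a1 to Slc1a2 was 1.03, 1.65 and 0.840, with a log2(TPM + 1) difference of 0.17 ± 0.50 (exact permutation test, two-sided, p = 0.75). The difference was 0.68 with the longest annotated transcripts, 0.96 with the remaining bases of Slc1a1 and -0.92 by CPM, which ignores length, and in each of these cases all 3 replicates had the same sign (exact permutation test, two-sided, p = 0.25). Slc1a3 was lower than Slc1a1, with 22.3 ± 10.4 TPM and a log2(TPM + 1) difference of 2.80 ± 0.66. Slc1a6, a carrier best known from cerebellar Purkinje neurons, had 22.0, 26.1 and 27.0 TPM, and Slc1a7 had 12, 4 and 0 counts.

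**Figure D2:**
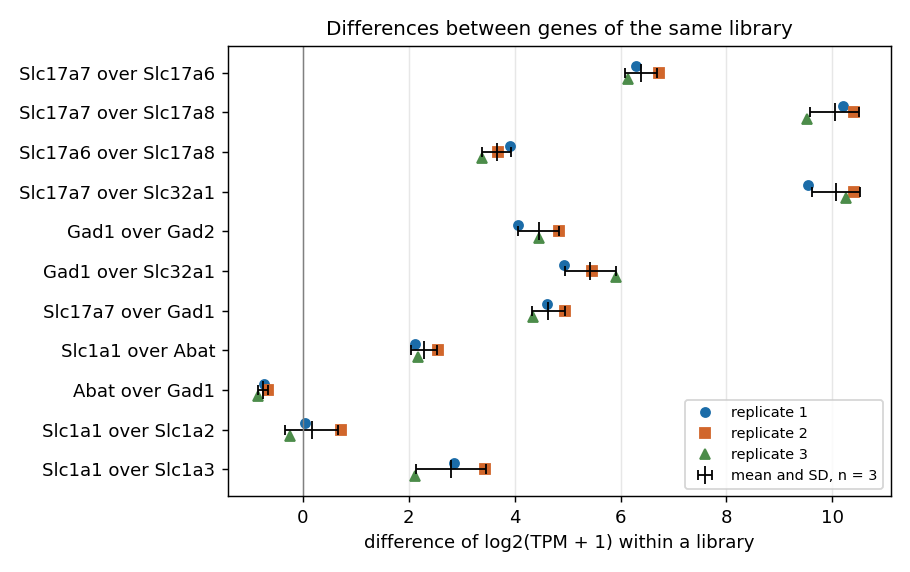
Differences of log2(TPM + 1) between 2 genes of the same library, for the 11 pairs compared. Symbols are the 3 replicates and black bars are the mean and SD; all replicates lie on the same side of 0 except for Slc1a1 over Slc1a2, where replicate 3 lies at -0.25.

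From the highest to the lowest mean, the order was Slc17a7, Slc1a1, Gad1, Abat, Slc17a6, Gad2, Slc32a1 and Slc17a8. The ranges of neighbours did not overlap down to Gad2, whose range overlapped that of Slc32a1. The means of Slc32a1 and Slc17a8, 0.272 ± 0.470 and 0.270 ± 0.344 TPM, did not differ beyond their spread. In total, 5 of the 8 genes were detected, compared with 57.0% of nuclear protein-coding genes and 30.3% of all genes in the table, and the members' share is close to that of protein-coding genes. Gad2, Slc32a1 and Slc17a8 were not detected by this limit, but Gad2, whose lowest CPM was 0.545 in replicate 2, passed a limit of 0.5, which brings the count to 6 of 8, as does leaving out replicate 2. Over the 11 pairs, 10 had the same direction in 3 of 3 replicates (two-sided exact permutation test over replicates, p = 0.25 for each, and 0.275 after Benjamini-Hochberg adjustment). That p of 0.25 is the lowest value this number of libraries can give. No pair can pass a threshold of 0.05 in this design.

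Genes listed for glutamate supply, among them enzymes and carriers of glutamine, were all expressed. All 14 listed genes were detected, and their median was 91.8 ± 8.28 TPM. Got1, a cytosolic aspartate aminotransferase, was the highest with 396 ± 10.1 TPM. Gls2, a glutaminase best known from liver, had 46.6 ± 2.06 TPM. Slc25a22, a mitochondrial glutamate carrier, had 171 ± 8.68 TPM. Glul, the glutamine synthetase of astrocytes, had 120, 81.1 and 152 TPM, and Slc38a3, a glutamine transporter known from astrocytes, had 2.25, 1.89 and 7.27 TPM. These last genes, like Slc1a2 and Slc1a3, were lowest in replicate 2 and highest in replicate 3.

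**Figure D3:**
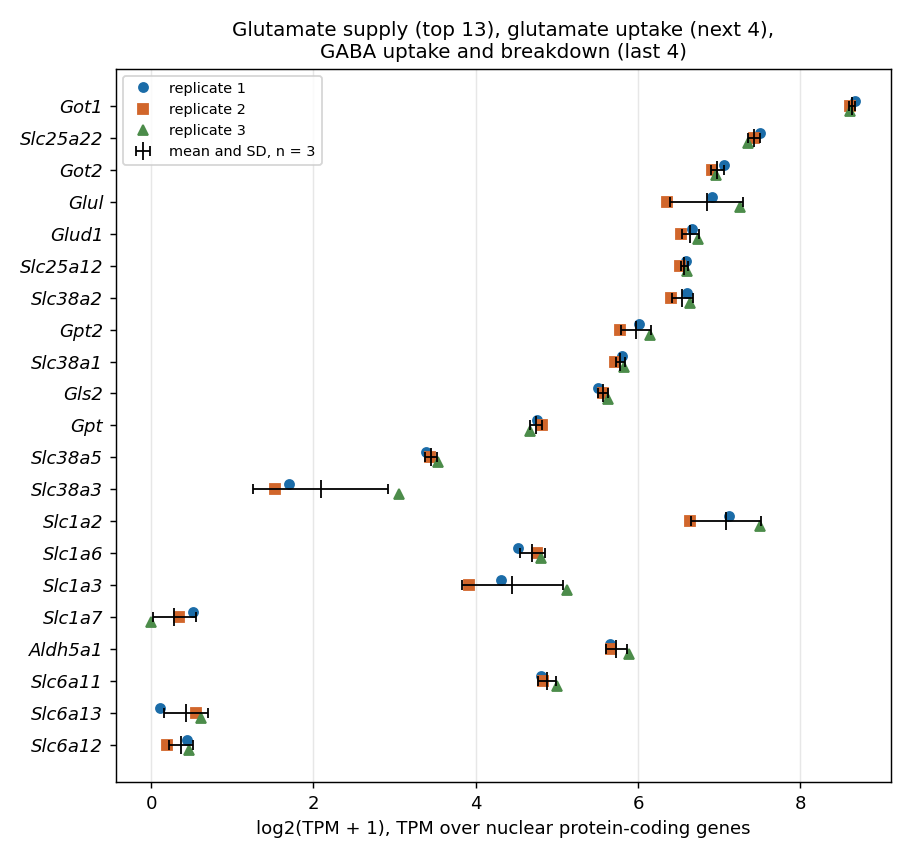
Level of the genes reported for glutamate supply, glutamate uptake and GABA uptake and breakdown on a log2(TPM + 1) axis, each group ordered by its mean. Symbols are replicates, black bars are the mean and SD; Glul, Slc38a3, Slc1a2 and Slc1a3 have the 4 widest bars, with replicate 2 lowest and replicate 3 highest.

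Genes that mark other transmitters were mostly near 0. Of 17 such genes, 2 were detected. They were Slc18a2, the vesicular monoamine transporter VMAT2, with 11.7 ± 0.66 TPM, and Slc6a9, a glycine transporter, with 13.0 ± 1.12 TPM. The level of Slc18a2 was close to that of Slc17a6 and steady over replicates, with 370, 185 and 121 counts, although the serotonin transporter gene Slc6a4 had 1, 0 and 0 counts. Chat and Slc18a3 of acetylcholine synthesis and packaging, Th of catecholamine synthesis and the noradrenaline transporter Slc6a2 had a count of 0 in all 3 libraries. Dbh, which makes noradrenaline from dopamine, had 35, 35 and 20 counts, or 2.46 ± 0.78 TPM.

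The members differed in how far replicates spread. The coefficient of variation of normalized counts was 8.08% for Slc17a7, 7.70% for Slc1a1 and 9.16% for Abat, near the median of 8.39% over the 12471 detected nuclear protein-coding genes. It was larger for Gad1, at 14.1%, and for Slc17a6, at 16.0%, which exceeded the values of 77.1% and 81.9% of these genes. Counting alone would give 2.47% for Gad1 and 5.52% for Slc17a6. For Gad2 it was 59.3%, against 16.5% from counting alone.

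Replicate 2 was the lowest of the 3 for Slc17a6, Gad1 and Abat, 3 of the 5 detected members, and 37.6% of the 12471 detected genes were lowest there as well. Gad2 and Slc17a8 were lowest in replicate 2 too. All 8 astrocyte markers were lowest in replicate 2, with summed levels of 184, 123 and 197 TPM. None of them was at 0, and Slc4a4 and Aldoc were the highest. The interneuron sum was lowest in replicate 2 and highest in replicate 3, and the endothelial sums were 14.1, 28.8 and 89.6 TPM. The sums of oligodendrocyte precursor markers, 20.3, 8.65 and 17.4 TPM, and of subiculum markers, 24.1, 22.4 and 42.0 TPM, were also lowest in replicate 2. Single markers were less uniform, since 2 of 4 oligodendrocyte precursor, 1 of 3 subiculum and 7 of 15 interneuron markers were lowest there. By TPM, 9 of 15 interneuron markers were highest in replicate 1, unlike their sum. Sst and Npy, the 2 highest of that list, were highest in replicate 3, with 23.9 and 15.1 TPM. The sums of CA1, CA3, dentate granule, excitatory neuron and oligodendrocyte markers were steadier. Their largest deviation of a replicate from the mean was 0.07 on the log2 scale, for CA1 markers in replicate 2. Among these sums, that of dentate granule markers was lowest in replicate 2, at -0.06. Single oligodendrocyte markers were less steady, and 6 of 8 were lowest in replicate 2. The part of these other cells in the spread of Gad1, Slc17a6 and Abat was not tested.

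**Figure D4:**
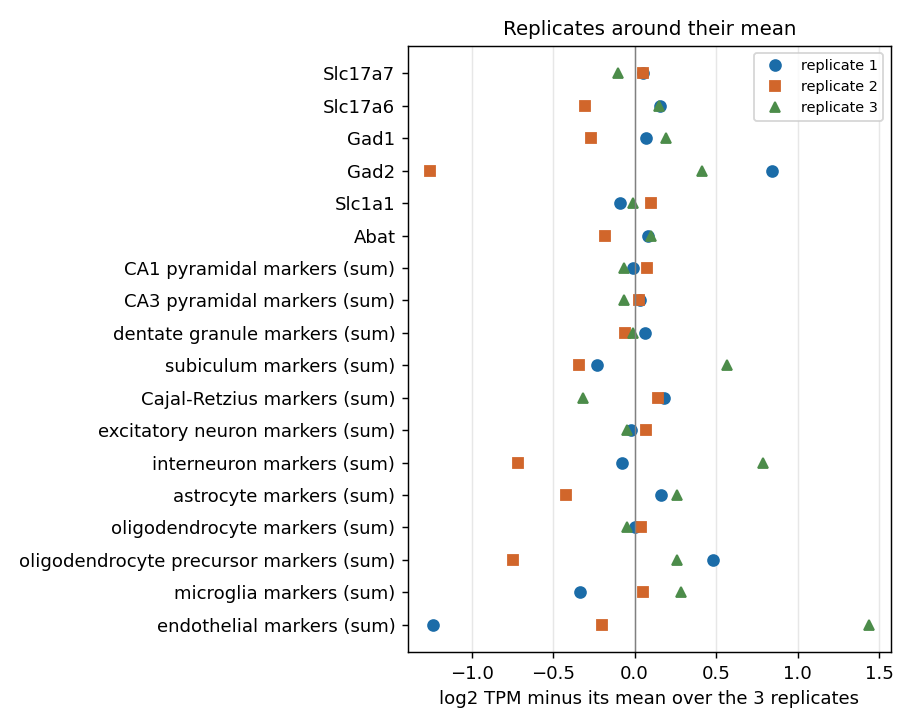
Deviation of each replicate from the mean over the 3 replicates, in log2 TPM, for the 6 members with a count in each replicate and for the summed TPM of each marker list. Gad1, Slc17a6, Abat and Gad2 have replicate 2 at the left, as the interneuron, astrocyte, oligodendrocyte precursor and subiculum sums do. The sums of CA1, CA3, dentate granule, excitatory neuron and oligodendrocyte markers stay near 0, that of dentate granule markers with replicate 2 at the left.

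The genes with the most similar profile over the 3 replicates were found by Euclidean distance of log2(TPM + 1), with 3 named for each of 5 members. For Slc17a7 they were Cox8a, Itm2c and Eef1a2, at distances of 0.0697 to 0.109. For Gad1 they were Cnot6, Qk and March7, and for Slc17a6 they were Pm20d2, Shc3 and Zbtb49. For Slc1a1 they were Mcts1, Bcap31 and Cirbp, and for Abat they were Tatdn1, Rpp38 and Coq6. With 3 libraries of 1 condition, the distance rests on the level as well as on the pattern.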

How the data were processed

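Poly(A) RNA of sorted tdTomato-positive hippocampal cells was sequenced in 3 biological replicates. The deposited values are raw counts per gene, with the merged exon length in bp (per the file headers). The submitters' processing notes name STAR, featureCounts, mm10 and GRCm38, and versions, strand, multimapping and overlap settings are not given in the sources used here. All 3 sample columns were used, and 0 columns of per-sample values were left out. Of 52636 genes, 52489 were named by GENCODE vM21.

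TPM, CPM and median-of-ratios size factors (1.82, 0.954 and 0.581) were computed from the counts, with TPM and size factors over nuclear protein-coding genes. The same steps were tested on simulated data. Detected genes had 1 CPM or more in all 3 replicates. Poisson intervals at 95% and the limit of 3 counts for a count of 0 cover counting error only. The 11 ratios used an exact permutation test over replicates, by flipping signs. TMM factors came from edgeR 4.0.16 in R 4.3.3. Other steps used Python 3.11.15, numpy 2.4.6, scipy 1.17.1, pandas 2.3.3, matplotlib 3.10.9 and Biopython 1.88. Coding sequences were the longest annotated per gene, aligned globally. Members, gene pairs and lists (46 pathway genes and 81 cell type markers) were chosen with earlier results of these data known. Members, pathway genes, the 2 highest of each marker list, markers at 0 and the 3 nearest profiles could be named by rule, and not all of them were. Reln and Calb2 were named after their values were seen. Some listed genes are not reported here by name.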

Additional observations from a re-analysis of the deposited data

How the results depend on the processing

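Of 141 alternatives, those for ratios, shares and the number of detected members gave 80 unchanged results, 1 moved and 2 turned in direction. Those for levels and coefficients of variation gave 47 unchanged and 11 moved. A level or share is called moved where it shifted by the SD between replicates or more. A ratio is called unchanged where it kept its sign, whatever its size. The number of detected members and a coefficient of variation are called unchanged within 1.5-fold, so 6 members in place of 5 is called unchanged. Only the ratios could turn in direction, and 2 of their alternatives did. Both of these concerned Slc1a1 over Slc1a2, whose log2 difference of 0.17 became -0.92 with CPM, which ignores length, and -0.11 without replicate 2, with a highest value of 0.38 when another replicate was left out. The share of Slc17a7 among vesicular glutamate transporters moved from 98.9% to 99.1% with the longest annotated transcript as length. Dividing by the exon bases that no other gene shares was chosen after seeing the data, and among ratios it was run for Slc1a1 over Slc1a2 alone. The other 10 ratios kept their direction with the longest annotated transcript and with CPM. The other pseudocount and leaving out 1 replicate could not turn them, because all 3 replicates lay on the same side of 0. A pseudocount of 0.1 raised Slc17a7 over Slc32a1 from 10.07 to 12.62, so ratios to genes near 0 have no fixed size. With TPM over all genes, the mean of Slc17a7 was 414 TPM and that of Gad1 16.5 TPM, and with the longest annotated transcript as length they were 1775 and 85.3 TPM. In the shallowest library, replicate 3, the count of 0 for Slc32a1 allows a level of up to 0.416 TPM at the limit of 3 counts.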
